A study of Sus scrofa with 6 samples.

Results

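A set of 8 immediate-early genes was compared over 3 titled stages of follicles from the pig ovary: the transcription factors FOS, JUN, EGR1, ATF3, KLF4 and CEBPB, the RNA-binding protein ZFP36 and the stress sensor GADD45B. Their probe sets were taken by name, as all those whose platform annotation gives 1 of these symbols and no other. This found 11 of the 24123 probe sets on the array, for all 8 genes: 3 for EGR1, 2 for GADD45B and 1 for each of the others. All 11 were bright enough to be among the 14399 probe sets tested.

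RNA came from follicles of the ovaries of prepubertal gilts, which are young female pigs. They were isolated by morphology and diameter at 3 stages that the submitters call primordial, middle and last. Each stage had 2 single-channel Affymetrix porcine arrays, titled as biological replicates, which makes 6 arrays in all. No breed, age, treatment or pooling is given in the sources used here, and nothing there says whether replicates came from separate animals, so a p-value here speaks only of the spread among these arrays, which may be technical. Stage names rest on the titles, since a description attached to all 6 samples calls each of them primordial.

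The stage names were set against marker genes. Of 7 oocyte markers tested, 6 rose from the primordial to the middle arrays, among them ZP2 (mean signals of 2000 against 22.4) and GDF9 (1414 against 144). The other was KIT, a receptor on oocytes, which went the opposite way, with means of 1389, 212 and 948 in the primordial, middle and last arrays. Granulosa cell markers were mixed. INHA and CYP19A3 had means of 13718 and 9934 in the arrays titled primordial against 3021 and 1679 in the middle arrays, whereas AMH had 236 against 1367, and FSHR, at 283 against 312, was not called. The summed signal of 9 oocyte markers was 1313 to 2305 in the arrays titled primordial, 12226 to 14301 in the middle pair and 1499 to 1583 in the last pair, and KIT made up most of it outside the middle pair. High INHA and CYP19A3 beside low ZP2 in the arrays titled primordial leave that name unsettled. Fall and return below therefore name differences between titled stages, not a course followed in time. Probe set signal is an arbitrary intensity, and every deposited array had the same trimmed mean of 500.1. The median signal per array ranged from 119.3 to 169.9, and the number of arrays limits the precision of every value below. In such bulk samples, fewer cells of a type and less RNA per cell cannot be told apart.

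Immediate-early genes are transcribed within minutes of a stimulus, without the need for new protein, because the factors that switch them on are already present in the cell. Growth factors, gonadotropins acting through cyclic AMP, cytokines, mechanical handling and heat can all induce them, and their transcripts are short-lived. In the ovary several of them, among them EGR1, CEBPB and FOS-family members, are known to be induced in granulosa cells by the luteinizing hormone surge.

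All 8 genes had the same outline over the stages: high in the arrays titled primordial, low in the middle pair and high again in the last pair. At the brightest probe set of each gene, the fall and the return were largest for ATF3, KLF4, CEBPB and GADD45B and smallest for FOS, JUN and EGR1, but the dimmest EGR1 probe set returned by 3.92. Of the 11 probe sets, 11 were lower in the middle arrays than in those titled primordial by limma at an adjusted p under 0.05, where 17.7% of all probe sets tested were lower and 29.7% higher. Both middle arrays lay below both primordial ones in 11 of 11, as in 29.2% of all probe sets. Again 11 of 11 were higher in the last than in the middle arrays, where 7.29% of all probe sets were higher and 9.94% lower, and both last arrays lay above both middle ones in 11 of 11, against 25.2%. Between the last arrays and those titled primordial 1 of 11 was higher and 2 were lower, against backgrounds of 19.8% and 13.4% (33.2% in either direction). There the pairs of arrays did not overlap in 2 probe sets that were higher and 3 that were lower, against 41.1% and 27.9%. These comparisons share arrays, so the fall and the return are not independent of each other. The members, and the lists below, were chosen with earlier results of these data known. The background shares therefore describe the set and are no independent test of it. Each difference is one of log2(signal + 16) values ± its standard error in the limma fit (n = 2 arrays in each stage). Folds come from the same values, so those of dim genes are too small. Taking every tested probe set, the typical (median) shift was 0.22 from primordial to middle, -0.07 from middle to last and 0.14 from primordial to last. In that order 62.7%, 42.3% and 59.7% of calls were increases. Centring arrays on their medians made these 47.5%, 54.8% and 47.4%. The median shifts were then -0.02, 0.04 and 0.01, which are small by construction of the centring. The members' median differences were -2.39, 2.76 and -0.01.

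**Figure D1:**
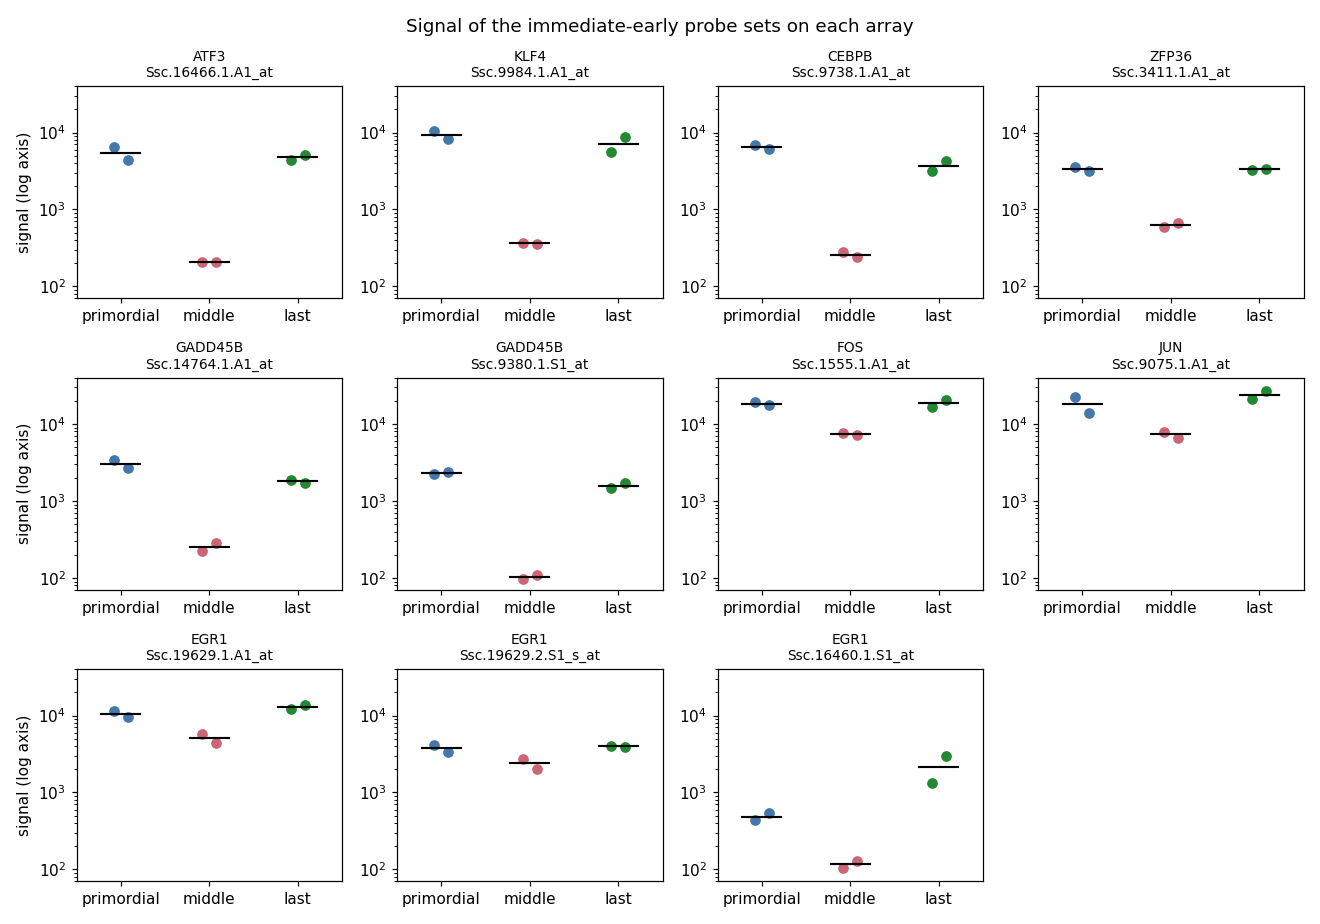
Signal of each of the 11 probe sets (log axis) on the 2 arrays of each stage (points), with the stage mean (line). Every probe set has its lowest points in the middle arrays, from 98.1 and 109.3 for 1 GADD45B probe set to 7984 and 6669 for JUN.

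ATF3, a stress-induced factor of the ATF and CREB family that mostly represses transcription, had signals of 6492 and 4428 in the arrays titled primordial, 209.8 and 210.4 in the middle pair and 4431 and 5130 in the last pair. The middle arrays were both far below the other 4, and those of the last stage lay within the range of the primordial ones. The middle arrays were lower than the primordial ones by 23.8-fold, at -4.57 ± 0.22 (limma adjusted p = 2.42e-06), and the last arrays were higher than the middle ones by 4.40 ± 0.22 (limma adjusted p = 7.18e-06). Ranked by this increase, ATF3 stood at place 12 of 14399 probe sets from the highest.

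KLF4, a zinc-finger factor known for its part in cell cycle arrest and in reprogramming to pluripotency, had signals of 10316 and 8345, then 369.3 and 359.2, then 5631 and 8713. Its 2 last arrays differed from each other by 1.55-fold, more than the replicates of either other stage. The difference was -4.61 ± 0.23 for middle minus primordial (limma adjusted p = 2.64e-06), a fold of 24.4, and 4.21 ± 0.23 for last minus middle (limma adjusted p = 9.46e-06). From the lowest, KLF4 stood at place 40 of 14399 in middle minus primordial, next to ATF3 at place 43 and CEBPB at place 45.

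CEBPB, a basic leucine zipper factor needed in granulosa cells for ovulation and luteinization, had signals of 6851 and 6103, then 282.1 and 238.2, then 3163 and 4214. The 3 stages did not overlap in this gene. The middle arrays were lower, at -4.56 ± 0.20 (limma adjusted p = 1.97e-06), and the last arrays were higher than the middle ones by 3.74 ± 0.20 (limma adjusted p = 1.07e-05). CEBPB was also lower in the last arrays than in those titled primordial, at -0.82 ± 0.20, a fold of 1.77 (limma adjusted p = 0.0141). That call was lost without last replicate 1 (-0.62, adjusted p = 0.083), without primordial replicate 1 (-0.74, 0.0957) and without primordial replicate 2 (-0.91, 0.0537), in a range of 0.00703 to 0.0957 over all alternatives.

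GADD45B, which binds and activates stress kinases and is known in growth arrest and DNA damage responses, was measured by 2 probe sets. The brighter, Ssc.14764.1.A1_at, had signals of 3413 and 2682, then 226.5 and 282.4, then 1888 and 1737. The other, Ssc.9380.1.S1_at, had 2246 and 2381, then 98.1 and 109.3, then 1487 and 1689. In both probe sets no array of 1 stage overlapped another stage, and the order was primordial, last, middle. The fall was -3.50 ± 0.21 by the first (limma adjusted p = 7e-06) and -4.28 ± 0.20 by the second (limma adjusted p = 2.19e-06). The return was 2.76 ± 0.21 and 3.74 ± 0.20, with limma adjusted p of 5.14e-05 and 9.46e-06. For last minus primordial the first probe set was lower, at -0.74 ± 0.21 (limma adjusted p = 0.0257), and the second missed the threshold at -0.54 ± 0.20 (limma adjusted p = 0.0625). The first call was lost without last replicate 1 (-0.80, adjusted p = 0.0597), without last replicate 2 (-0.68, 0.0842), without primordial replicate 1 (-0.56, 0.18) and with quantile normalization (-0.63, 0.0575), in a range of 0.0127 to 0.18. The second probe set passed with each array centred on its median (-0.67, adjusted p = 0.0287) and with the stricter filter (-0.54, 0.0482).

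ZFP36, also called tristetraprolin, binds AU-rich elements in cytokine messages and hastens their decay, and is itself induced by the same stimuli as the cytokines. Its signals were 3550 and 3174 in the arrays titled primordial, 585.1 and 673.5 in the middle pair and 3280 and 3396 in the last pair. The middle arrays were lower, at -2.39 ± 0.18, a fold of 5.24 (limma adjusted p = 1.95e-05). The last arrays were higher than the middle ones by 2.38 ± 0.18 (limma adjusted p = 4.7e-05). The last arrays lay inside the primordial pair, and the difference of these stages was -0.01, with a 95% interval of -0.41 to 0.39.

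FOS and JUN together form the AP-1 dimer, the classical product of immediate-early transcription. FOS had signals of 19175 and 17484, then 7583 and 7264, then 16760 and 20385. The middle arrays were below all others, yet kept a bright signal. FOS was lower in the middle arrays, at -1.30 ± 0.14, a fold of 2.46 (limma adjusted p = 0.000112), and higher in the last than in the middle arrays by 1.31 ± 0.14 (limma adjusted p = 0.000341). The last pair of FOS spanned the primordial pair, with a difference of 0.01 and a 95% interval of -0.30 to 0.33.

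JUN had signals of 22772 and 13727, then 7984 and 6669, then 21217 and 26900. The 2 primordial arrays of JUN differed by 1.66-fold, the widest gap between replicates of that stage among the 11 probe sets. The fall was -1.27 ± 0.23 (limma adjusted p = 0.00175) and the return 1.71 ± 0.23 (limma adjusted p = 0.00125). Last minus primordial was 0.43 ± 0.23 (limma adjusted p = 0.173, and 0.0263 to 0.841 over the alternatives). It passed without primordial replicate 1, the brighter of the pair, at 0.80 (adjusted p = 0.0263).

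EGR1, a zinc-finger factor induced through the MAP kinase pathway, gave 3 probe sets that agreed in direction and not in size. The brightest, Ssc.19629.1.A1_at, had signals of 11446 and 9618, then 5814 and 4334, then 12027 and 13727, with -1.06 ± 0.18 for the fall (limma adjusted p = 0.00122) and 1.35 ± 0.18 for the return (limma adjusted p = 0.00115). The second, Ssc.19629.2.S1_s_at, had 4141 and 3392, then 2749 and 2019, then 4069 and 3848; the suffix of its name marks a probe set that can match several transcripts. Its differences were the smallest of all members, at -0.67 ± 0.20 and 0.74 ± 0.20 (limma adjusted p = 0.0206 and 0.0311). The fall of the second probe set missed the threshold without middle replicate 2 (-0.44, adjusted p = 0.134), without primordial replicate 1 (-0.52, 0.141), with quantile normalization (-0.48, 0.0755) and without the intensity trend (-0.67, 0.052), in a range from 0.00488. Its return missed it without last replicate 1 (0.70, 0.0955), last replicate 2 (0.78, 0.0651), middle replicate 1 (0.97, 0.0502) and middle replicate 2 (0.52, 0.156), with quantile normalization (0.63, 0.0544) and without the intensity trend (0.74, 0.075), in a range from 0.0177.

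The third EGR1 probe set, Ssc.16460.1.S1_at, was dim where the others were bright and had signals of 433.9 and 533.8, then 105.3 and 128.2, then 1330 and 2959. The 3 stages did not overlap, and the last arrays were the highest, though they differed from each other by 2.22-fold. It was lower in the middle arrays, at -1.91 ± 0.34 (limma adjusted p = 0.00180), higher in the last than in the middle arrays by 3.92 ± 0.34 (limma adjusted p = 0.000117) and higher in the last than in the primordial arrays by 2.01 ± 0.34, a fold of 4.02 (limma adjusted p = 0.00256). This increase over the primordial arrays was called in all 15 alternatives and ran from 1.44 without last replicate 2 to 2.58 without last replicate 1. The brightest EGR1 probe set gave 0.29 ± 0.18 for the same comparison (limma adjusted p = 0.235). Within an array the log2 signal of the third probe set minus that of the brightest was -4.67 and -4.13 in the primordial pair, -5.59 and -4.91 in the middle pair and -3.16 and -2.21 in the last pair. The probe sets therefore disagree on whether EGR1 was higher in the last than in the primordial arrays, and which transcript region each covers is not given in the sources used here.

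**Figure D2:**
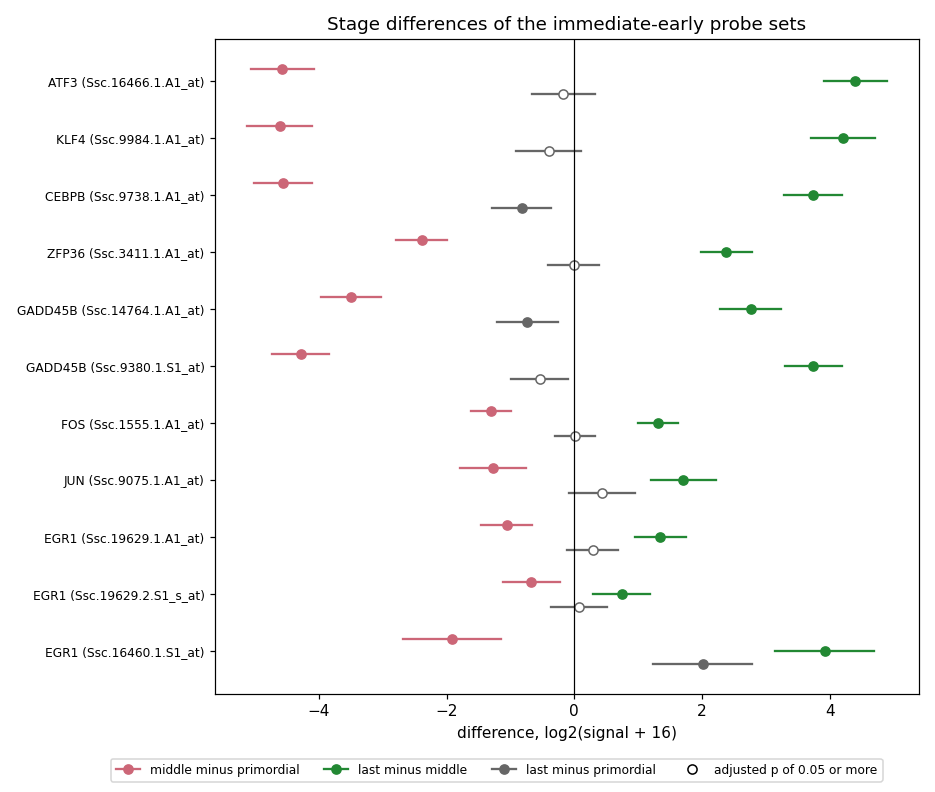
Difference of each probe set in the 3 stage comparisons on the log2(signal + 16) scale (points) with its 95% interval from the limma fit (lines); open points missed an adjusted p of 0.05. Red points all lie below 0 and green points all above it, while the grey points of last minus primordial lie between -0.82 and 0.43 except for the third EGR1 probe set at 2.01.

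At the brightest probe set of each gene, sizes differed between members by more than their errors. The 95% intervals of the fall were -5.12 to -4.10 for KLF4, -5.06 to -4.08 for ATF3 and -5.02 to -4.10 for CEBPB, which overlap each other. Those of ZFP36 (-2.79 to -1.99) and of FOS (-1.61 to -0.99) overlap neither these nor one another. The intervals of FOS, JUN (-1.79 to -0.76) and the brightest EGR1 probe set (-1.46 to -0.66) overlap. The third EGR1 probe set (-2.68 to -1.14) overlaps ZFP36 and FOS, so that differences between genes and between probe sets cannot be told apart. No test of the difference between members was made. Over the 8 genes, at the brightest probe set of each, the median fall was -2.94 and the median return 2.57, where 5432 genes taken in the same way had medians of 0.06 and 0.02. For last minus primordial the members had a median of -0.09 and all genes one of 0.06.

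At 1 probe set per gene, 22.5% of 5432 genes fell and 22.9% rose from the primordial to the middle arrays. From the middle to the last arrays 8.8% rose and 7.23% fell (16% in either direction). From the primordial to the last arrays 15.8% fell and 17.2% rose (32.9%). Of 131 other genes listed from the same families and pathways, 74 had a probe set of their own and 61 were tested. In middle minus primordial 42 of these 61 were lower and 4 higher. In last minus middle 34 were higher. In last minus primordial 34 were lower and 7 higher. The count for last minus middle was 21 without middle replicate 1, and the count of called genes in last minus primordial was 27 without either primordial replicate, against 41 with all arrays. Of the 41, 21 stayed called whichever array was left out.

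Among the partners of FOS, JUN and ATF3, 4 of 4 tested genes were lower in the middle arrays. FOSL1, a FOS-family partner of JUN, had mean signals of 1681, 72.2 and 102 in the primordial, middle and last arrays. It fell by 4.26 ± 0.25 (limma adjusted p = 6.32e-06) and was still lower in the last than in the primordial arrays, at -3.84 ± 0.25 (limma adjusted p = 2.43e-05). FOSL2, another FOS-family member, had 3050, 370 and 761, and was lower in the last arrays than in the primordial ones, at -1.99 ± 0.24. ATF4, the factor of the amino acid and unfolded protein response, had 16425, 3158 and 7759, with -1.10 ± 0.17 for last minus primordial. FOS itself, as described above, had 18329 and 18572 at these ends. DDIT3, a stress-induced C/EBP-family factor, had 1528, 614 and 1603. It was lower in the middle arrays, at -1.21 ± 0.31, but missed the threshold without middle replicate 1 (-1.30), middle replicate 2 (-1.12) or primordial replicate 1 (-0.71). For last minus primordial DDIT3 was not called, at 0.14 ± 0.31 (limma adjusted p = 0.762). In last minus middle 3 of the 4 were higher: FOSL2 (0.99), ATF4 (1.28) and DDIT3 (1.35). There the calls of FOSL2 and DDIT3 were lost without last replicate 2 or either middle replicate.

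Relatives of KLF4, CEBPB and GADD45B, and the NR4A receptors listed beside EGR1, showed the fall in most cases and the return in some. No other EGR gene was tested. NR4A3, an immediate-early orphan nuclear receptor, had mean signals of 1239, 54.6 and 277, with differences from the primordial arrays of -4.17 ± 0.27 (middle) and -2.10 ± 0.27 (last). KLF10, a factor induced by TGF-beta, had 7049, 1513 and 3115, with -2.20 ± 0.19 and -1.16 ± 0.19 for the same comparisons. Of 5 KLF and SP genes 3 were lower and 1 higher in the middle arrays. The higher one, KLF15, at 0.83 (limma adjusted p = 0.0301), was not called in 6 of 14 alternatives, with adjusted p up to 0.173. The C/EBP family had 2 tested genes: CEBPG was lower, at -1.70 ± 0.28, and CEBPD, at -0.60 ± 0.27, missed the threshold at its brighter probe set (limma adjusted p = 0.0947), while the other of its 2 probe sets was called lower. GADD45A and GADD45G were lower in the middle arrays, at -2.45 ± 0.23 and -2.21 ± 0.21. GADD45G had mean signals of 2831, 601 and 3803 and did not pass in last minus primordial, at 0.44 ± 0.21 (limma adjusted p = 0.147).

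Other immediate-early genes numbered 20 tested, of which 15 were lower in the middle arrays, 12 were higher in last minus middle, and 11 were lower and 4 higher in last minus primordial. MYC, the growth-promoting factor, had mean signals of 4393, 593 and 537, and the last arrays were lower than the primordial ones, at -3.0 ± 0.19 (limma adjusted p = 2.29e-05). IER5, an early response gene, fell by 3.41 ± 0.17, with means of 9078, 841 and 3706. CYR61, a secreted matricellular protein, had 9925, 1095 and 7214, with a fall of -3.15 ± 0.19 (limma adjusted p = 7.64e-06). PTGS2, the inducible prostaglandin synthase, fell by 4.28 ± 0.38 from 498 to 10.8 and had 146 in the last arrays. The size of that fall depends on the pseudocount, at -5.71 with 1 and -2.89 with 64, where the middle signals were 18.1 and 3.5. For THBS1 tested probe sets were called in opposite directions in both comparisons that hold the middle arrays.

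Genes listed as feedback inhibitors were lower in the middle arrays for 5 of 6 tested genes and higher in last minus middle for 6 of 6. Without middle replicate 1 the latter count was 3, as DUSP6, SOCS1 and RGS2 missed the threshold. The difference was -3.26 ± 0.25 for PPP1R15A, a phosphatase subunit that restores translation after stress, -3.08 ± 0.29 for DUSP6, a phosphatase of ERK, and -2.70 ± 0.15 for NFKBIA, the inhibitor of NF-kappa B. DUSP1, a phosphatase of the stress kinases, fell by 1.69 ± 0.18 and had mean signals of 8184, 2540 and 9269. The kinases and factors upstream went both ways. Of 10 tested, 3 were lower and 3 higher in the middle arrays, with a median of 0.45. Without middle replicate 1 the calls of MAP2K2 (lower) and PRKACB (higher) were lost. The call of MAP2K6 (higher) was lost without middle replicate 2 or either primordial replicate. RPS6KA1, a kinase below ERK, was lower, at -2.17 ± 0.23, and PRKACA, a catalytic subunit of protein kinase A, was higher by 1.08 ± 0.22.

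**Figure D3:**
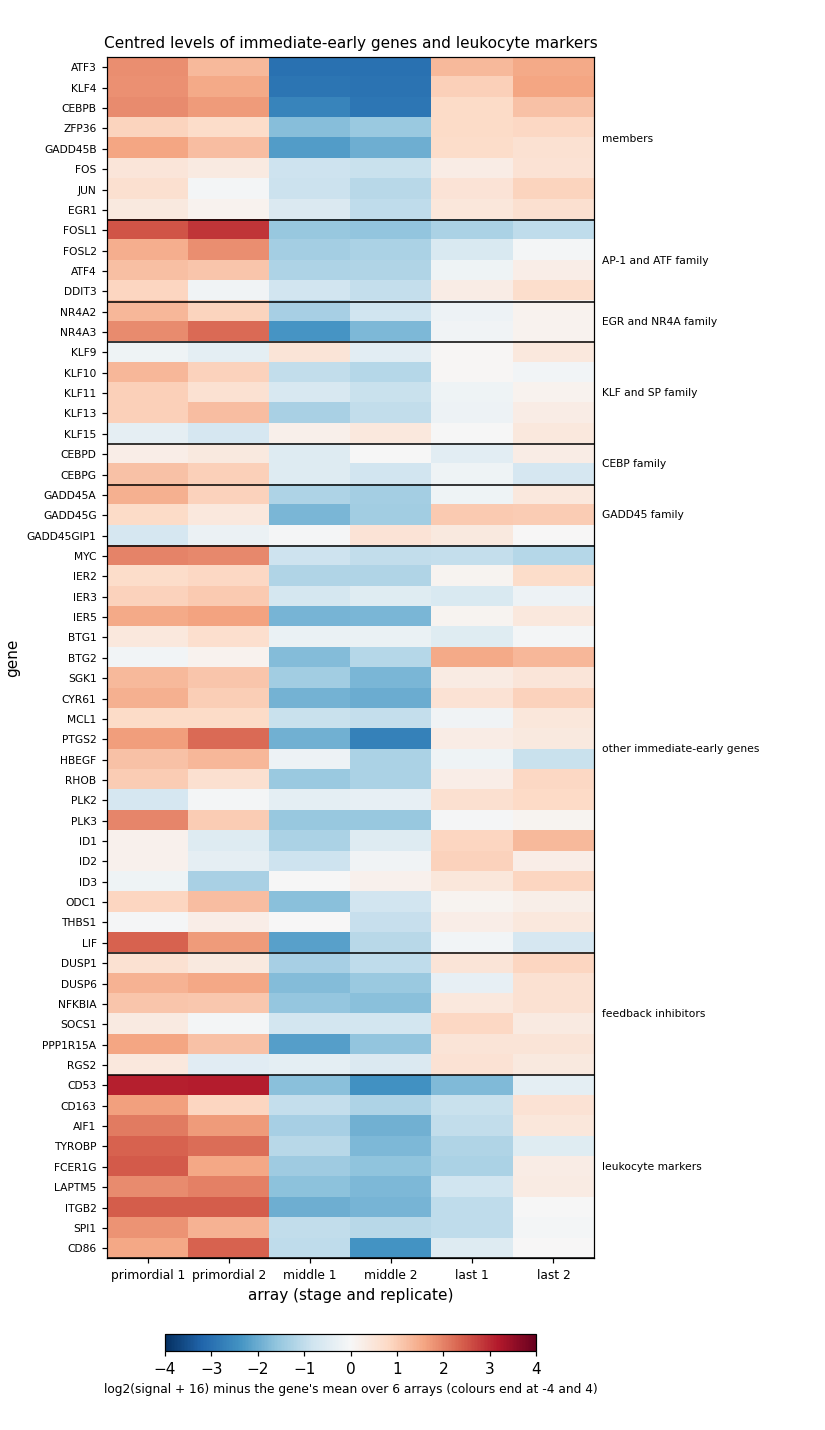
Level of each tested gene on each array, as log2(signal + 16) minus the mean over 6 arrays, for the 8 immediate-early members, their relatives, other immediate-early genes, feedback inhibitors and leukocyte markers. The members are blue in the 2 middle arrays and above their mean in the last arrays, whereas FOSL1 and MYC are blue in both, and the leukocyte markers are reddest in the 2 primordial arrays.

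A list of cytokine and growth factor transcripts, several of them known ZFP36 targets, was set beside ZFP36. Of 9 tested, 7 were lower in the middle pair and 7 were lower in the last pair than in those titled primordial, with medians of -5.25 and -2.92. In last minus middle 6 of the 9 were higher, with a median of 1.83. CXCL2, another neutrophil chemokine, had mean signals of 10827, 285 and 4026, with 3.82 for last minus middle. CXCL8, a neutrophil chemokine, had mean signals of 10273, 13.3 and 271. IL1B, an inflammatory cytokine, had 14032, 244 and 369, and TNF had 977, 51.0 and 128. ZFP36 had 3362, 629 and 3338. For VEGFA, also on the list, the brightest of 3 probe sets was not called, at 0.49 ± 0.19 in middle minus primordial, and the other 2 were called lower.

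Leukocyte genes moved with the fall of the members. Of 13 leukocyte and macrophage markers on the array 9 were tested and 9 were lower in the middle arrays, with a median of -3.66. The summed signal of the 13 was 20105 to 22730 in the arrays titled primordial, 1389 to 1919 in the middle pair and 2064 to 5058 in the last pair. PTPRC, CD14, ITGAM and MARCO, all defining markers, were under a signal of 100 on every array. In last minus primordial 9 of 9 were lower, with a median of -2.21. In last minus middle the differences of all 9 were positive, with a median of 1.03, and 2 of 9 were called higher (LAPTM5 and ITGB2). Both of the latter calls were lost without last replicate 2 or either middle replicate, and 7 of the 9 former ones held whichever array was left out, the exceptions being CD163 and CD86. CD53, a leukocyte tetraspanin, had mean signals of 7910, 212 and 462 at its brightest probe set, and 1 of its 3 probe sets was called higher in last minus middle. The summed signal of the 8 members, at 1 probe set each, was 65560 to 84014, then 20031 to 23054, then 68396 to 84201, so that the members' sums overlapped between the primordial and last arrays while the leukocyte sums did not. FOS, JUN and EGR1 made up most of the members' sum on every array. At the probe sets summed, CEBPB and GADD45B lay lower in both last arrays than in both primordial ones, and EGR1 lay higher. The part of leukocytes in the members' differences was not tested.

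Part of the granulosa markers and chaperones moved with the members. The summed signal of 14 granulosa markers was 70104 to 89160 in the arrays titled primordial, 41173 to 46097 in the middle pair and 95142 to 99079 in the last pair. Of 11 tested, 6 were lower and 1 higher in middle minus primordial, and 6 were higher and 2 lower in last minus middle. NR5A2 had the largest differences of the list and moved as the members did, at -4.56 and then 5.84, with means of 4175, 161 and 10142. AMH, made by granulosa cells of growing follicles, ran opposite to the members, at 2.41 and then -3.40. Of 11 heat shock and chaperone genes 10 were lower in the middle arrays, and 5 were higher in last minus middle, with a median of 0.28. Among them DNAJB1, an inducible co-chaperone, had mean signals of 18085, 1080 and 14302, with a fall of -4.0 ± 0.23 and 3.71 ± 0.23 for last minus middle. HMOX1, heme oxygenase, had 6243, 1264 and 1292. For HSP90AA1 and the granulosa marker FST probe sets were called in both directions in middle minus primordial. Of 4 HSPA8 probe sets 1, the brightest, was called lower there and 3 were called higher. In last minus middle 3 of these 4 were called lower. The excess of the 3′ over the 5′ signal of a control tends to grow as RNA is less intact. For an actin control it was 3.37 ± 0.24 (log2, SD, n = 2) in the arrays titled primordial, 4.56 ± 0.53 in the middle pair and 3.72 ± 0.23 in the last pair. Another actin control had no such excess, at -0.88 ± 0.04, -1.16 ± 0.9 and -0.97 ± 0.59. The excess of a GAPDH control was 3.05 ± 0.52, 3.03 ± 0.35 and 1.88 ± 0.02. The part of any of these in the members' differences was not tested.

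The summed signals of stromal, muscle, theca and endothelial markers had other outlines, though single genes in them did not. The summed signal of 7 stromal fibroblast markers was 967 to 1118 in the arrays titled primordial and at least 13087 in each other array. That of 7 smooth muscle markers was 29885 to 30056 in the last arrays and at most 9885 in the others. That of 5 theca markers was 18023 to 21401 in the last arrays and at most 6318 in the others. Endothelial markers, 8 in number, summed to 3539 to 4051 in the last arrays and to at most 1928 in the others. Within these lists CYP11A1, a steroidogenic enzyme among the theca markers, had means of 4492, 673 and 1741, called lower in middle minus primordial (-3.04) and higher in last minus middle (1.67). PECAM1, an endothelial adhesion molecule that leukocytes also carry, had 931, 227 and 808, with -1.97 and 1.77. INSL3, with 9982, made up the largest share of the theca sum in the last arrays.

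**Figure D4:**
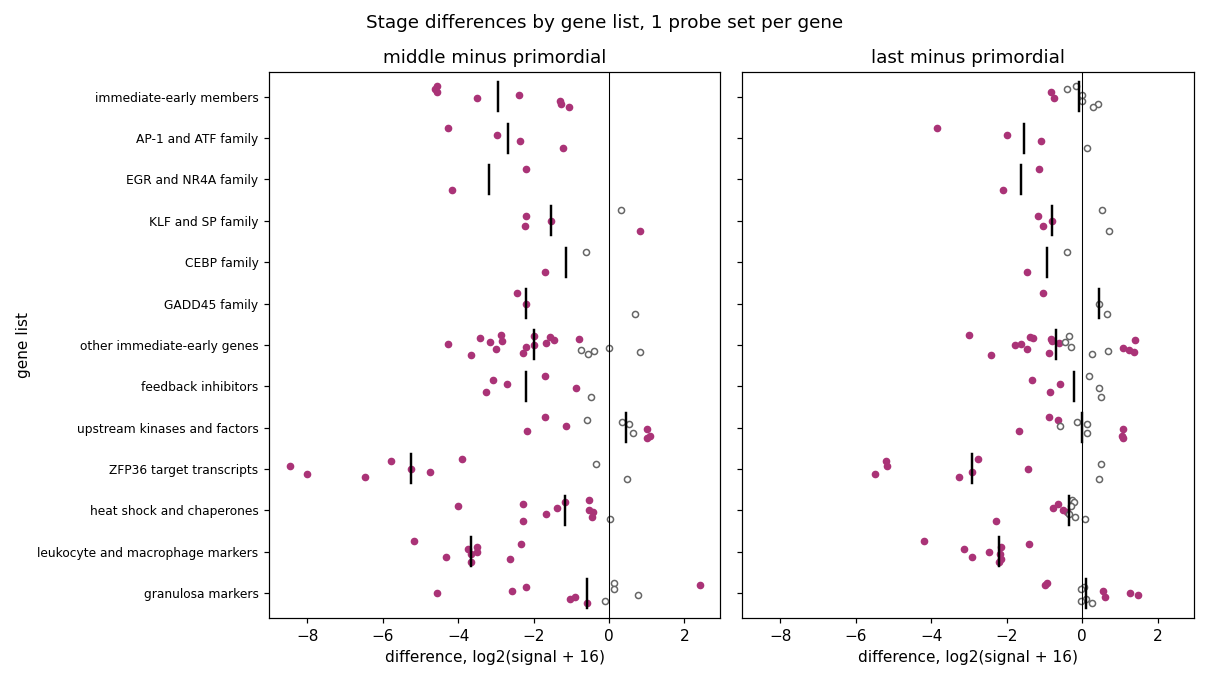
Difference of each tested gene, by list, in middle minus primordial (left) and last minus primordial (right) on the log2(signal + 16) scale; filled points passed an adjusted p of 0.05 by limma and bars mark medians. In the right panel the 8 members centre on -0.09, whereas the leukocyte markers centre on -2.21 and the ZFP36 target list on -2.92.

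The genes whose pattern over the 6 arrays came nearest to the mean of the 8 members were found by root mean square distance between log2(signal + 16) profiles, each centred on its own mean. Among 5424 other genes the distance had a median of 1.39, and 34 genes lay within 0.5. The nearest was CYR61 at 0.13, followed by RAB27B, a GTPase of secretory vesicles, at 0.15, NFKBIA at 0.27, PQLC3 at 0.28, the interferon regulatory factor IRF1 at 0.30, the glucose transporter SLC2A3 at 0.30, the mitogen-induced GTPase GEM at 0.31 and the water and glycerol channel AQP3 at 0.32. The members themselves lay between 0.24 for ZFP36 and 0.79 for ATF3 and EGR1. RAB27B had signals of 407.5 and 310.7, then 49.5 and 40.5, then 273.4 and 391.7, with a fall of -2.61 ± 0.29 (limma adjusted p = 0.000138) and 2.5 ± 0.29 for last minus middle. IRF1 had 2395, 349 and 2432, GEM had 878, 113 and 979, and SLC2A3 had 6124, 780 and 3592. All 8 were called lower in middle minus primordial and higher in last minus middle; they were chosen for this profile, so these calls are a description.

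**Figure D5:**
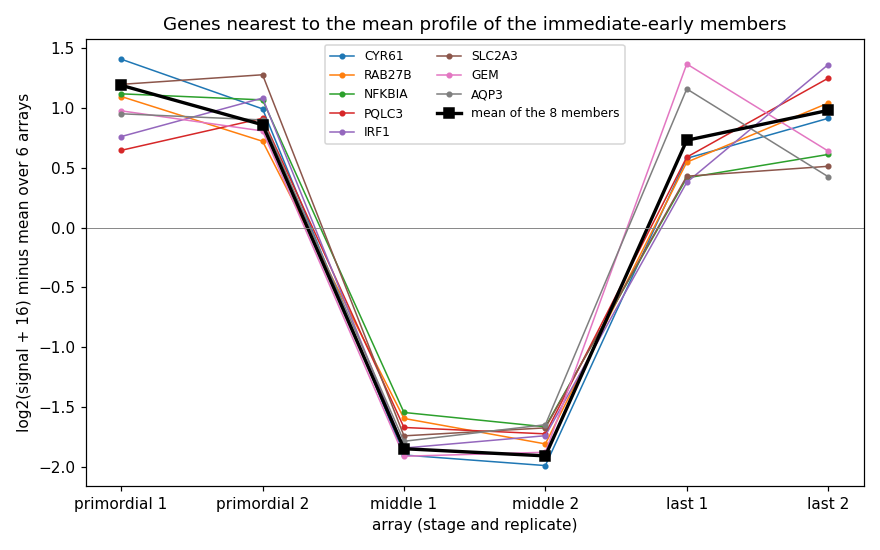
Profiles of the 8 nearest genes (thin lines) and the mean of the 8 immediate-early members (thick black line) over the 6 arrays, as log2(signal + 16) minus each profile's mean; lines join arrays only to guide the eye. The mean profile stands at 1.19 and 0.86 in the primordial arrays, -1.85 and -1.91 in the middle pair and 0.73 and 0.98 in the last pair.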

How the data were processed

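Each array was prepared from 6 µg of total RNA, extracted with Trizol, per the labels' protocols. The authors' values are linear intensities, 1 per probe set and array, made with GCOS per the submitters' processing notes, with no version or settings given here; the values show that each array had been scaled.

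Tests left out 124 controls and then the dimmest 40% of probe sets by mean signal (under 91.3). They used log2(signal + 16) and added no normalization. Linear models over all 6 arrays without a replicate block came from limma 3.58.1 under R 4.3.3 (eBayes with an intensity trend, 3 residual and 6.33 prior degrees of freedom). P-values are two-sided and adjusted by Benjamini-Hochberg over 14399 probe sets, with a threshold of 0.05. The fit was tested on simulated data. Lists take the probe set of highest mean signal per gene.

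The members and lists were chosen with earlier results of these data known. By gene identifier, 8 of 8 members had an entry of the same symbol among the RefSeq genes. From each pathway list the rule named up to 4 called genes with the largest difference in middle minus primordial and in last minus primordial, of which examples are given, and the 8 genes nearest in profile; other genes with values, markers included, were chosen after their values were seen. Alternatives were pseudocounts of 1 and 64, no filter and a 60% filter, quantile normalization, median centring, a replicate block, fits of 4 arrays, no intensity trend, means of probe sets, and leaving out each array. Python 3.11.15, pandas 2.3.3, numpy 2.4.6 and matplotlib 3.10.9 were used.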

Additional observations from a re-analysis of the deposited data

How the results depend on the processing

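All 11 member probe sets kept their direction in middle minus primordial and in last minus middle under all 15 alternatives. They also kept their side of the threshold, with the exception of the second EGR1 probe set (Ssc.19629.2.S1_s_at), as given with its values. In last minus primordial the directions of FOS, ZFP36, ATF3 and that EGR1 probe set, none of them called, were not stable: centring each array on its median gave -0.12 for FOS and -0.05 for EGR1, and quantile normalization gave 0.05 for ZFP36. Leaving out 1 array gave ranges of -0.13 to 0.15 for FOS, -0.09 to 0.07 for ZFP36, -0.44 to 0.11 for ATF3 and -0.07 to 0.22 for EGR1, with signs turned by primordial replicate 1 (ATF3 0.11, ZFP36 0.07), primordial replicate 2 (FOS -0.05, EGR1 -0.07), last replicate 1 (ZFP36 0.02) and last replicate 2 (FOS -0.13). KLF4, not called there, passed without last replicate 2 (-0.72, adjusted p = 0.0381).

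Counts moved by over 1.5 times only when an array was left out. Over all probe sets the calls then ranged from 4239 to 7234 (6821 with all arrays) in middle minus primordial, from 700 to 2212 (2481) in last minus middle and from 2759 to 4298 (4786) in last minus primordial. The lowest were without middle replicate 1, middle replicate 1 and primordial replicate 2. Of the member probe sets 1 to 3 were called in last minus primordial. Of the pathway genes 21 to 32 were called in last minus middle and 27 to 38 in last minus primordial. The sources used here do not say whether same-numbered samples belong together. Deviations of same-numbered arrays correlated at 0.0593, 0.0318 and -0.0476 between stages. Such values show no shared shift but cannot settle whether samples were paired. With the replicate block 11, 11 and 3 member probe sets and 47, 33 and 39 pathway genes were called in the 3 comparisons. With 2 arrays per stage, a stage left with 1 array is assumed to vary like the others.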
